A study of Danio rerio with 24 samples.

Results

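The livers of male F0 zebrafish fed a high arachidonic acid (ARA) diet were compared with those of F0 males fed a control diet. These are the parental fish of a 2-generation feeding study, and they are the generation that ate the test diets. The libraries were chosen by their labels, 6 from F0 high ARA and 6 from F0 control, which is 12 of the 24 libraries of the series. The other 12 libraries came from F1 progeny of both groups, all of which received the control diet. Their age at sampling was 140 to 142 days post fertilization.

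All fish were wild-type zebrafish of the AB strain, and no allele or agent beside the diet separated the groups. Per the study, the high ARA diet held more ARA-rich oil and less rapeseed and flaxseed oil than the control diet. More ARA and less of these other oils therefore cannot be told apart. Both F0 groups shared the same start feed until they were moved to their diet at 27 days post fertilization (DPF). They were mated at 97 DPF and sampled at 154 to 156 DPF after an overnight fast. Each library pooled the livers of 6 males from one tank, so the tank is the replicate and fish within a tank cannot be separated. The study kept 10 tanks per diet group, with 20 fish of both sexes in a tank after early growth. Fish of one tank shared water and feed from an early age, so a tank difference and a diet difference are separated only by the spread between tanks.

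ARA is an omega-6 polyunsaturated fatty acid. In cells most of it sits in membrane phospholipids, where lysophospholipid acyltransferases insert it and phospholipases A2 release it. Released ARA is the substrate of cyclooxygenases and lipoxygenases, which turn it into prostaglandins and leukotrienes, and fatty acids of this kind are ligands of nuclear receptors that set lipid metabolism in liver. The liver also makes ARA from linoleic acid by desaturation and elongation, burns fatty acids in mitochondria after their coupling to carnitine, and secretes plasma proteins and lipoproteins.

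Total counts on Ensembl genes were between 5608588 and 15659321 in the control and between 5973529 and 11646711 in high ARA. Levels are given as CPM, which is the count relative to the library total at a common depth, scaled by TMM factors for library composition. A gene was tested where its mean count over the 12 libraries was at least 10. Log2 fold changes are high ARA over control, with the standard error (SE), and all p-values for single genes come from edgeR's quasi-likelihood test unless another test is named. The label of the tissue was held against liver markers. All 14 hepatocyte markers were tested and together made up 159756 to 225160 CPM in control libraries and 161164 to 207550 CPM in high ARA. The defining ones, fabp10a, tfa and fgb, had at least 36176 counts in every library. Of the 14 markers 8 had a log2 fold change above 0 and 6 below, with a median of 0.02. At an unadjusted p under 0.05 were 3 of them, fabp10a, tfa and hpxa, all lower in high ARA (21.4%, against 7.43% of all genes). In pooled livers, fewer cells of a type and less RNA per cell cannot be told apart.

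Markers of neighbouring tissues were present and differed in amount between libraries. The summed level of 21 pancreas acinar markers was 866 to 4065 CPM in the control and 2824 to 6227 CPM in high ARA, 20 of the 21 had a log2 fold change above 0, and the median was 0.45. None of the 21 had an unadjusted p under 0.05. The 22 tested enterocyte markers had a median of −0.39, which was 0.15 without control replicate 7, the library richest in them. Their defining gene fabp2 was at 6.5 to 509 CPM in the control and 5.96 to 291 CPM in high ARA. Of 10 erythrocyte markers 9 had a log2 fold change below 0, with a median of −0.28 and summed levels of 327 to 469 CPM against 252 to 387 CPM. The 6 tested muscle markers had a median of −0.92, with summed levels of 14.0 to 93.7 CPM against 16.5 to 66.7 CPM, and a median of −0.42 without control replicate 7. Markers of egg and sperm were at or near 0, since gdf9 had no count in any library, zp3b at most 5, ddx4 at most 12 and piwil1 at most 20. The part of these tissues in the gene results below was not tested beyond the fits with an acinar or enterocyte score, which are given with the effects of processing.

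The diet effect across the whole liver transcriptome was small. Over 12194 Ensembl genes the median log2 fold change was −0.02, the quartiles were −0.15 and 0.13, and the 5th and 95th percentiles were −0.47 and 0.42. There were 5740 genes above 0 and 6454 below. With the quasi-likelihood test of edgeR no gene passed an adjusted p of 0.05 in either annotation, so the share called was 0%, and the smallest adjusted p was 0.0644 with Ensembl and 0.0945 with RefSeq genes. At an unadjusted p under 0.05 there were 906 Ensembl genes (7.43%), of which 487 were higher (3.99%) and 419 lower (3.44%), and 939 of 12490 RefSeq genes (7.52%). DESeq2 with a normal prior, the second test run, called 22 genes at adjusted p under 0.05 in both annotations, which is 0.195% of 11294 genes tested in both. Of these, 14 were higher and 8 lower.

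These counts describe how far a gene of each level could be resolved. Among the 5441 genes with a mean of at least 10 CPM the median SE was 0.13, and the 95% interval lay within a log2 fold change of 1 in either direction for 5050 (92.8%) and within 0.5 for 3655 (67.2%). A log2 fold change of 1 or more in size was fitted for 132 genes (65 higher, 67 lower), whose median mean level was 2.64 CPM against 8.30 CPM over all genes tested. Only 20 of them had a mean of at least 10 CPM. Among the 138 most abundant genes, with a mean of at least 1000 CPM, 7 had an unadjusted p under 0.05. This is a smaller share than the 7.43% of all genes tested. The largest difference in size among the 138 was that of bhmt. The 12 libraries separated completely, with every high ARA library on one side of every control library, for 62 genes (0.508% of those tested), 39 higher and 23 lower. None of these genes had an adjusted p under 0.05 by edgeR, and single genes are therefore given with their values and spread.

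**Figure D1:**
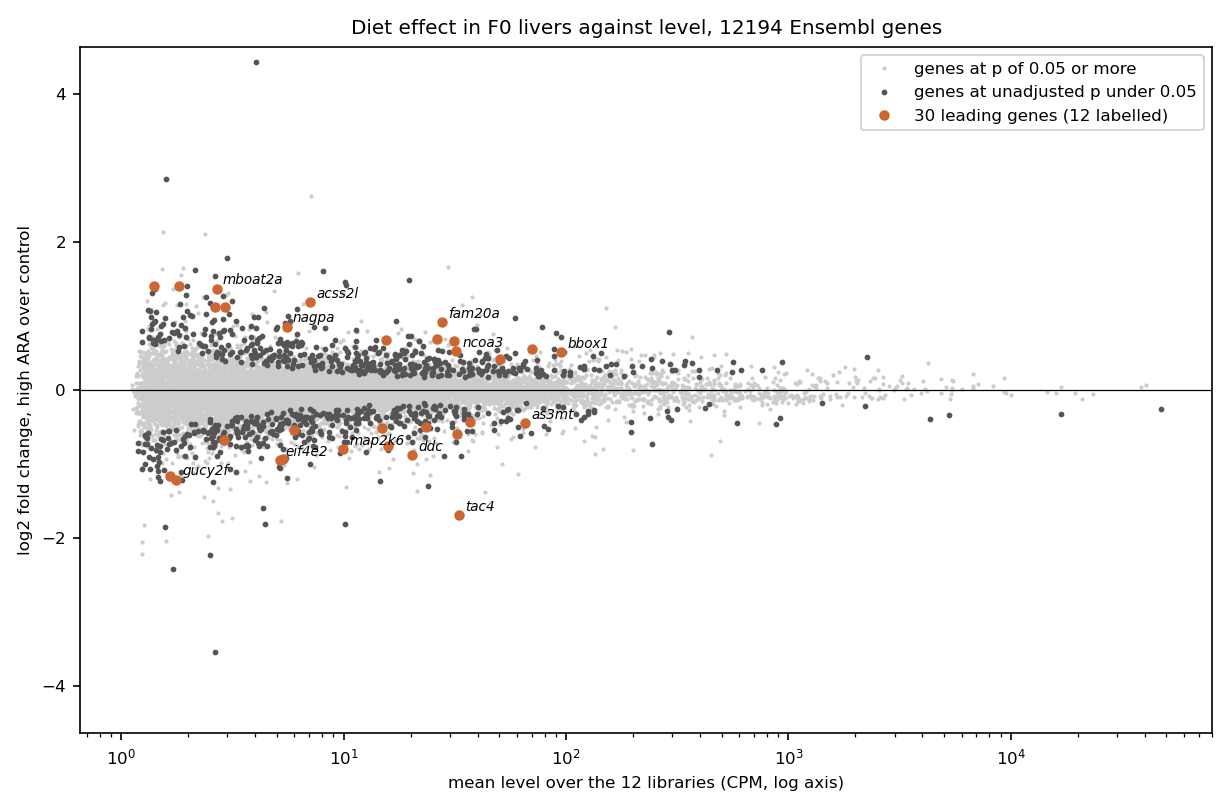
Log2 fold change of high ARA over control (vertical axis) against the mean level in CPM (horizontal axis, log scale) for the Ensembl genes tested in F0 livers. Grey points are genes at a p of 0.05 or more, dark points the 906 genes at an unadjusted p under 0.05, and orange points the 30 leading genes, 12 of them labelled. The spread narrows as the level goes up, and large values sit mostly at a few CPM.

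The 30 leading genes were the 15 higher and 15 lower genes with the smallest p among those that have an assigned symbol and an unadjusted p under 0.05 with the same sign in the RefSeq counts. This choice was made on the diet contrast itself, so their p-values are given as a description of the genes and not as a test of them. Their log2 fold changes were between 0.42 and 1.68 in size, and their adjusted p by edgeR was between 0.0644 and 0.360. The groups did not overlap for 18 of the 30, against 62 of all 12194 genes tested (0.508%). Genes picked by a small p on these libraries tend to separate the groups. This count and the ranges below therefore describe the 30 genes and do not test them. Their mean level was between 1.40 and 95.3 CPM, and it was under 10 CPM for 14.

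The gene with the smallest p was mboat2a (chromosome 17, 35021177 to 35128784 on the minus strand of GRCz10). It belongs to the membrane-bound O-acyltransferases, and its human counterpart places a fatty acid back on lysophospholipids. It was at 1.15 to 1.83 CPM in the control (median 1.56) and at 2.85 to 5.10 CPM in high ARA (median 3.54). The lowest high ARA library lay above the highest control library. By edgeR it had a log2 fold change of 1.37 ± 0.20 (SE) at an adjusted p of 0.0644 with Ensembl genes, and of 1.38 with RefSeq genes. Without high ARA replicate 17 the Ensembl log2 fold change was 1.45 and its adjusted p by edgeR was under 0.05.

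Next came nagpa (chromosome 16, 40558850 to 40591949, plus strand), whose enzyme uncovers the mannose phosphate tag that sends hydrolases to the lysosome. The lowest, median and highest control levels were 3.43, 3.92 and 4.25 CPM, and those of high ARA were 5.74, 6.90 and 8.63 CPM. The ranges were apart. By edgeR the difference was 0.86 ± 0.13 (log2, SE) at an adjusted p of 0.0644. For dync1h1, the heavy chain of cytoplasmic dynein (chromosome 17, 1527965 to 1599371, minus strand), control libraries ran from 49.5 to 63.01 CPM and high ARA libraries from 74.3 to 94.5 CPM, again without overlap. Its log2 fold change was 0.56 ± 0.10.

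The carnitine gene bbox1 (chromosome 7, 34025639 to 34041282, plus strand) encodes the dioxygenase of the last step of carnitine synthesis. Its levels ran from 66.9 to 90.3 CPM in the control and from 101 to 125 CPM in high ARA, with medians of 75.6 and 112 CPM, with no overlap. With ncoa3 (chromosome 11, 18450079 to 18537227, plus strand), a coactivator of nuclear receptors, the groups were at 22.5 to 29.9 CPM and at 32.4 to 46.9 CPM, also apart. Both were among the 22 genes of DESeq2, and neither passed edgeR's test, where the adjusted p was 0.263 for bbox1 and 0.360 for ncoa3.

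Further leading genes that were higher included xpo1b, ipo13b and sec31a. In the control xpo1b, an exportin that carries proteins out of the nucleus, was at 16.6 to 32.1 CPM, and in high ARA at 33.2 to 51.0 CPM, a log2 fold change of 0.66 ± 0.15. Its counterpart for import, ipo13b, was at 1.08 to 2.51 CPM and 2.80 to 5.55 CPM. The outer COPII coat gene sec31a, whose product shapes vesicles that leave the endoplasmic reticulum, was at 9.12 to 16.1 CPM and 16.6 to 24.9 CPM. All 3 separated the groups. The size was less certain for the last 2, where the log2 fold change was 1.12 with Ensembl and 0.43 with RefSeq genes for ipo13b, and 0.67 and 0.38 for sec31a. Their gene models differ in length, with 3404 and 6329 bases for ipo13b and 4459 and 7024 for sec31a.

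The other higher genes had no function in common by their names. Groups were apart for wdr7, linked in mammals to the proton pump of vesicles (0.865 to 2.40 CPM against 3.02 to 4.64 CPM), and for ptk2aa, a focal adhesion kinase (0.181 to 1.22 CPM against 1.47 to 2.79 CPM). They overlapped for fam20a, a pseudokinase of the secretory pathway in mammals (14.4 to 28.6 CPM against 27.27 to 52.1 CPM), n4bp3 (0.793 to 1.52 CPM against 1.36 to 3.605 CPM), the selenoprotein selenoo1 (38.0 to 51.1 CPM against 49.6 to 66.4 CPM) and the membrane transporter slc22a23 (11.8 to 25.1 CPM against 22.3 to 36.9 CPM).

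Of the lower genes, eif4e2 (chromosome 2, 45263738 to 45282612, minus strand) had the smallest p. It encodes a cap-binding protein that represses translation in mammals. Control libraries were at 5.25 to 10.1 CPM (median 6.41) and high ARA libraries at 2.28 to 4.28 CPM (median 3.45), a log2 fold change of −0.95 ± 0.19 without overlap. One control library, replicate 12, held the highest level, and the other 5 were at 5.25 to 7.06 CPM.

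The lower genes also included as3mt and ddc. The arsenic methyltransferase as3mt (chromosome 1, 30974100 to 30990307, plus strand) was at 61.9 to 83.5 CPM in the control and 50.5 to 60.5 CPM in high ARA. The aromatic amino acid decarboxylase ddc (chromosome 16, 8384813 to 8429020, minus strand), which makes dopamine and serotonin, was at 22.1 to 31.1 CPM and 8.07 to 20.5 CPM. The groups were apart for both, with log2 fold changes of −0.44 ± 0.10 and −0.87 ± 0.20. A lyase of hydroxylysine breakdown, phykpl, was at 15.8 to 21.1 CPM and 8.94 to 14.0 CPM, also apart. For the lactonase pon2 (35.8 to 47.6 CPM against 28.0 to 36.1 CPM) and the cellular retinol-binding protein rbp5 (31.3 to 47.2 CPM against 20.98 to 32.6 CPM) the ranges touched or overlapped slightly.

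The remaining lower genes were of mixed function. The kinase map2k6, which activates p38 in mammals, was at 9.96 to 15.3 CPM in the control and 4.73 to 9.92 CPM in high ARA. The kinase taok3a was at 5.83 to 8.64 CPM and 4.25 to 5.61 CPM, tpgs2, a subunit of a tubulin-modifying enzyme, at 4.98 to 8.31 CPM and 2.32 to 4.91 CPM, and ice2, a subunit of the complex that elongates small nuclear RNAs, at 2.73 to 3.998 CPM and 1.81 to 2.52 CPM. All 4 separated the groups. The tachykinin precursor tac4 had the log2 fold change of greatest size among the leading genes, −1.68 ± 0.38, with medians of 53.1 CPM in the control and 15.6 CPM in high ARA. Its ranges overlapped because control replicate 11 was at 14.1 CPM while the other 5 control libraries were at 52.4 to 70.0 CPM. Log2 fold changes were −0.75 for the zinc finger gene znf326, −1.15 for the chemokine ccl38.6 and −1.21 for the guanylate cyclase gucy2f, and these 3 overlapped.

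**Figure D2:**
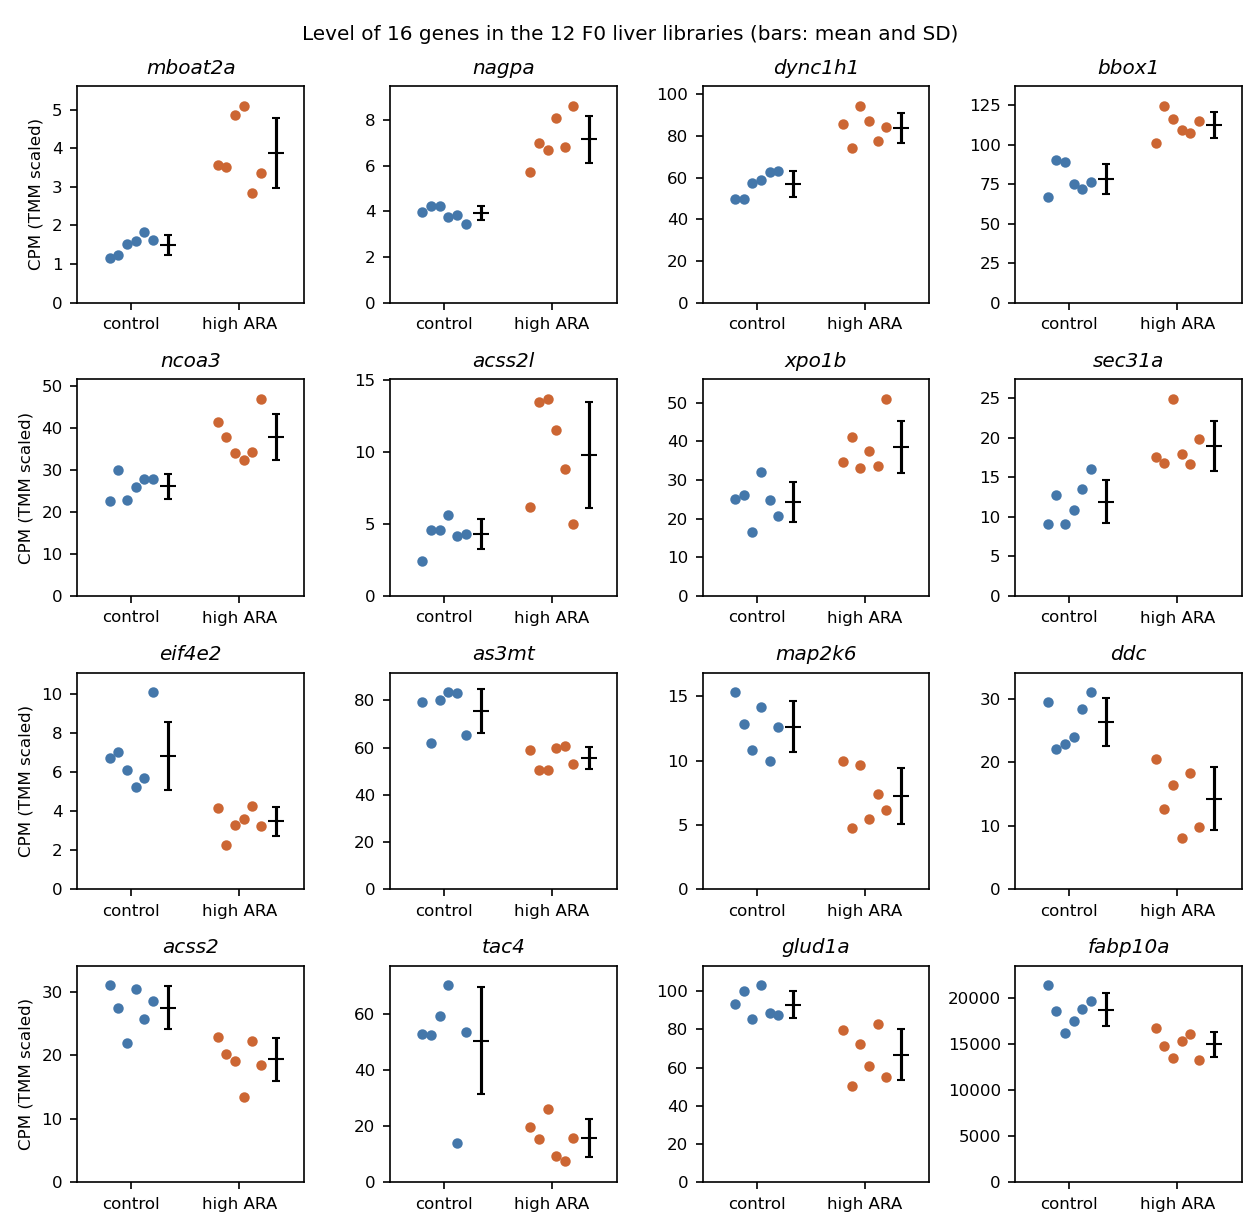
Level in CPM (vertical axes, from 0) of 16 genes in each of the 6 control (blue) and 6 high ARA (orange) F0 libraries, 1 point per tank pool, with the mean and SD as black bars. For mboat2a, nagpa, dync1h1, bbox1, ncoa3, xpo1b, sec31a, eif4e2, as3mt, map2k6, ddc and glud1a the orange and blue points do not overlap, and for acss2l, acss2, tac4 and fabp10a they do.

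A pair of related genes of acetate use stood on both sides. Each encodes an enzyme that turns acetate into acetyl-CoA. The level of acss2l (chromosome 2, 54855920 to 54909268, minus strand) was 2.41 to 5.60 CPM in the control (median 4.45) and 5.02 to 13.7 CPM in high ARA (median 10.2), while that of acss2 (chromosome 23, 9295576 to 9353475, plus strand) was 22.03 to 31.04 CPM (median 28.0) and 13.5 to 22.9 CPM (median 19.6). The log2 fold changes were 1.19 ± 0.26 and −0.50 ± 0.13. Reads that map to several places were left out of the counts, so sequence shared by the pair was not counted for either.

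The genes closest to ARA itself were mostly near 0 in both directions. The lists in this and the next paragraphs were chosen with earlier results of these data known. Their shares at an unadjusted p under 0.05 stand beside 7.43% of all genes and are not a test of a list. The list of eicosanoid synthesis and breakdown had 38 tested members of 56, 19 higher and 19 lower, with a median of 0.00, and 4 at an unadjusted p under 0.05 (10.5%, against 7.43% of all genes). One of the 4 was higher. The calcium-independent phospholipase A2 gene pla2g6, whose product releases fatty acids from phospholipids, was at 15.2 to 19.8 CPM in the control and 20.1 to 25.9 CPM in high ARA, without overlap and with a log2 fold change of 0.36 ± 0.10. The 3 lower ones were ptgr1.1, alox5b.3 and lta4h. A lipoxygenase gene of the leukotriene branch, alox5b.3, was low throughout, at 1.32 to 3.43 CPM and 0.175 to 1.32 CPM, a log2 fold change of −1.22 ± 0.38, and lta4h, which makes leukotriene B, was at 14.0 to 25.8 CPM and 12.97 to 18.1 CPM, a log2 fold change of −0.44 ± 0.15.

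Of the enzymes that make ARA from shorter fatty acids, none had an unadjusted p under 0.05. These 3 were named after their values were seen. The desaturase gene fads2 was abundant, at 4159.8 to 7016 CPM in the control (median 5489.6) and 3318 to 6651 CPM in high ARA (median 5313), a log2 fold change of −0.12 ± 0.16 (p 0.475). The elongase elovl2 was at 416 to 778 CPM and 441 to 798 CPM, a log2 fold change of 0.05 ± 0.16 (p 0.750). For elovl5, at 38.64 to 98.3 CPM and 61.6 to 229.6 CPM, the log2 fold change was 0.41 ± 0.34 (p 0.255), and high ARA replicate 14 alone held the top value. In the list of desaturation and elongation, 10 of 19 tested members were above 0 and 9 below, with a median of 0.02. The 2 members under 0.05 (10.5%, against 7.43% of all genes) were the electron donors cyb5r2 (−0.36) and cyb5r3 (−0.25). Each stayed under 0.05 in 17 of 25 alternatives.

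Phospholipid remodelling had 42 tested members, 26 above 0 and 16 below, with a median of 0.06 and 4 at p under 0.05 (9.52%), all of them higher. They were mboat2a and pla2g6, described above, the choline kinase chka with 0.35, and cds1, which makes the precursor of phosphatidylinositol, with 0.52 ± 0.15. The RefSeq value for cds1 was 0.28 (p 0.0595). Mboat2a and pla2g6 are 1 acyltransferase and 1 phospholipase picked by their small p, and they do not stand for all such enzymes. Whether either acted on ARA here was not tested.

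Carnitine and mitochondrial oxidation genes showed small differences, mostly above 0. In the carnitine list 10 of 15 tested members were above 0 with a median of 0.10. Of the 15, 4 had p under 0.05 (26.7%, against 7.43% of all genes), and 3 of these were higher. Beside bbox1 these were cpt1ab, the gate for long-chain fatty acids into mitochondria, at 80.3 to 97.2 CPM and 95.6 to 110.5 CPM (0.20 ± 0.08), and slc25a20, the carnitine shuttle of the inner membrane, at 74.4 to 124 CPM and 106 to 121 CPM (0.25 ± 0.11). The lower one was aldh9a1a.1 (−0.40), whose mammalian counterpart makes the substrate of bbox1. In the alternatives cpt1ab stayed under 0.05 in 23 of 25 and slc25a20 in 15 of 25. In mitochondrial fatty acid oxidation 23 of 31 members were above 0, with a median of 0.11 and 4 at p under 0.05 (12.9%). Among them mlycd, which breaks down the malonyl-CoA that inhibits the gate, was at 18.5 to 26.1 CPM and 24.03 to 31.8 CPM, a log2 fold change of 0.42 ± 0.12. The peroxisomal list had 18 of 29 above 0 and a median of 0.05. Its only member under 0.05 was mlycd (3.45%, below the 7.43% of all genes). The medians of all 3 lists stayed above 0 under each scaling tried and without any one library.

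Lipid stores and synthesis gave a mixed picture. The triglyceride lipase pnpla2 was at 8.45 to 19.7 CPM in the control and 18.4 to 42.2 CPM in high ARA (0.74 ± 0.24), with high ARA replicate 15 alone above 26.3 CPM, and the related pnpla7a had 0.62. An abundant gene for a fatty acid-binding protein, fabp10a, was at 16151 to 21345 CPM in the control (median 18709) and 13255 to 16718 CPM in high ARA (median 15073). The 2 groups overlapped in a narrow range, and the log2 fold change was −0.32 ± 0.09. Fabp10a is also a defining hepatocyte marker. In the list of fatty acid and triglyceride synthesis 21 of 31 members were above 0 with a median of 0.09. In sterol synthesis 21 of 30 were above 0, with a median of 0.08, and srebf2 (0.43) and pmvk (−0.35) were among those at p under 0.05. With the acinar score as covariate the median was 0.02 for fatty acid and triglyceride synthesis and 0.01 for sterol synthesis. With the enterocyte score these medians were 0.06 and 0.07. The sterol median was below 0 in 3 of 24 alternatives. Of these 2 genes, srebf2 stayed under 0.05 in 19 of 25 alternatives and pmvk in 11 of 24.

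Genes of cholesterol handling differed in size and direction, with a storage and a bile acid gene lowest. Soat2, which esterifies cholesterol, was at 14.7 to 53.4 CPM in the control (median 31.5) and 4.12 to 27 CPM in high ARA (median 13.8), a log2 fold change of −1.29 ± 0.42. Cyp7a1, the rate-limiting enzyme of bile acid synthesis, was at 4.58 to 38.5 CPM (median 11.9) and 0.772 to 10.4 CPM (median 3.95), −1.81 ± 0.62. Both overlapped, and both varied several-fold within each group. The oxysterol-binding protein osbp had 0.45, and 0.17 with RefSeq genes. Over the 40 tested members of this list the median was −0.03, with 3 higher and 3 lower at p under 0.05 (15%).

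Nuclear receptors that sense lipids were above 0 in 25 of 36 cases, with a median of 0.12 and 5 at p under 0.05 (13.9%), 4 of them higher. Pparg, the receptor of fat storage genes, was at 9.33 to 14.99 CPM in the control and 13.3 to 24.03 CPM in high ARA (0.47 ± 0.16). Nr1i2, the pregnane X receptor, was at 10.4 to 18.9 CPM and 17.1 to 24.8 CPM (0.48 ± 0.14). The retinoid X receptor gene rxrba, the partner of several of these receptors, was at 4.30 to 8.74 CPM and 9.47 to 12.1 CPM without overlap, and its log2 fold change was 0.61 ± 0.16 with Ensembl but 0.18 (p 0.111) with RefSeq genes, whose model has 5155 bases against 2885. The list of coregulators, to which ncoa3 belongs, had 26 of 46 above 0, a median of 0.02 and 7 at p under 0.05 (15.2%), including crebbpb (0.29) and nrip1a (0.31) among the 5 higher. The sign of its median changed in 4 of 24 alternatives, so no direction is given for it.

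Retinoid metabolism was below 0 in 23 of 31 tested members, with a median of −0.12 that stayed below 0 in all alternatives. At p under 0.05 were rbp5, described above, the reductase dhrs3b (−0.70 ± 0.21) and, higher, the dehydrogenase rdh12 (0.64 ± 0.25). The share at p under 0.05 was 9.68%. Estrogen response genes, which in females make yolk in the liver, had 13 tested members of 29. Of the 13, 2 were above 0 and 11 below, with a median of −0.27. At p under 0.05 were 4 (30.8%, against 7.43% of all genes). The estrogen receptor esr1 was at 2.24 to 7.08 CPM in the control (median 3.31) and 0.988 to 2.72 CPM in high ARA (median 1.98), −1.07 ± 0.32 with an adjusted p of 0.481 by edgeR. The vitellogenin vtg5, a yolk precursor, was at 8.53 to 53.2 CPM (median 10.6) and 4.94 to 18.7 CPM (median 6.27), −1.22 ± 0.55. Levels of both genes overlapped between the groups, and the other members under 0.05 were esr2a (−0.38) and sult1st1 (−0.90). Of these 4, esr1 stayed under 0.05 in all 24 alternatives, esr2a in 20 of 25, sult1st1 in 13 of 24 and vtg5 in 12 of 25, and the RefSeq p of vtg5 was 0.0571.

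**Figure D3:**
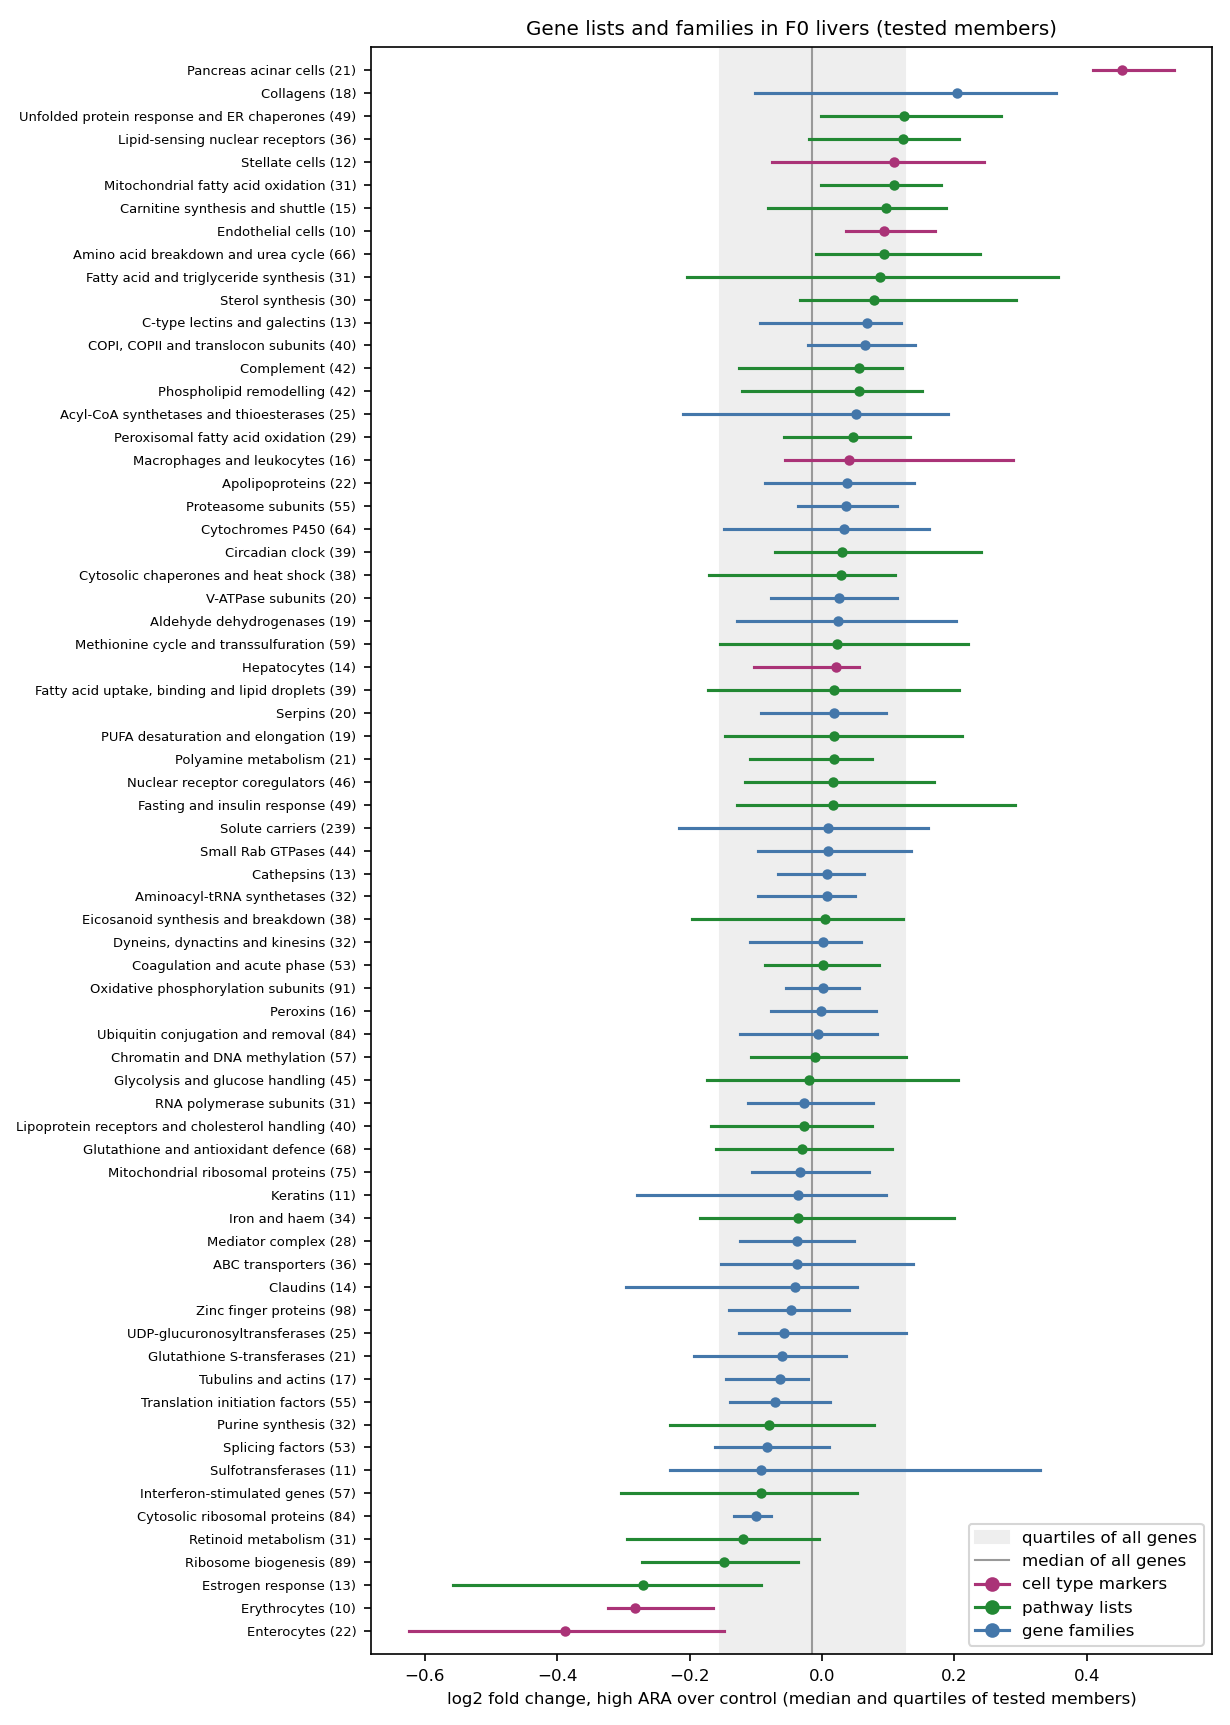
Median (points) and quartiles (lines) of the log2 fold change of high ARA over control for gene lists and families with at least 10 tested members, whose number stands in parentheses. The grey band marks the quartiles and the grey line the median over all genes tested (−0.15, 0.13 and −0.02). Cell type marker lists are purple, pathways green and families blue, and most lists lie within the band, with acinar markers far to the right and enterocyte markers to the left.

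Methyl-group and amino acid metabolism contained some of the most abundant genes with a difference. The enzyme bhmt, which uses betaine to turn homocysteine into methionine, was at 1599 to 2541 CPM in the control (median 1713) and 2106 to 3305 CPM in high ARA (median 2475), a log2 fold change of 0.45 ± 0.14 with overlap. The second enzyme of this step, mtr, was at 20.8 to 27.0 CPM and 27.16 to 35.7 CPM, apart, with 0.37 ± 0.10. In the list of the methionine cycle and transsulfuration 10 of 59 members had p under 0.05 (16.9%), 6 higher and 4 lower, and the median was 0.02. The lower ones included enoph1 (−0.74), an enzyme that salvages methionine. Amino acid breakdown was above 0 in 49 of 66 members, with a median of 0.09, 7 higher and 2 lower at p under 0.05 (13.6%). One of the 2 lower genes was glud1a, which releases ammonia from glutamate, at 85.4 to 103 CPM and 50.3 to 82.7 CPM, apart, with −0.48 ± 0.13. Tyrosine breakdown gene fah had 0.27 and agxt2, a mitochondrial aminotransferase, 0.33.

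Sugar and fasting genes differed gene by gene. In glycolysis and glucose handling 8 of 45 members had p under 0.05 (17.8%), 3 higher and 5 lower, with a median of −0.02. Gpia, an early glycolytic isomerase, had 0.33 and the lactate dehydrogenase ldhba 0.56, while txnipa, an inhibitor of glucose uptake in mammals and a member of the antioxidant list, was at 234.3 to 423 CPM and 103 to 281 CPM (−0.72 ± 0.23). Pcxa, which feeds pyruvate into gluconeogenesis, had 0.27 with Ensembl and 0.99 with RefSeq genes. A regulator of liver fasting genes in mammals, creb3l3a, was at 41.2 to 104 CPM in the control (median 68.2) and 90.9 to 154 CPM in high ARA (median 119), with 0.72 ± 0.20. The insulin receptor gene insra had 0.33. Control replicate 7 was the lowest for insra, at 29.4 CPM against 41.5 to 47.9 CPM in the other controls.

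Iron genes differed in both directions, with 8 of 34 members at p under 0.05 (23.5%, against 7.43% of all genes). Of the 8, 4 were higher and 4 lower, and the median of the list was −0.04. Of those that were higher, 3 take up iron or sense it, and ppox acts in haem synthesis. The transferrin receptors tfr1b and tfr2 were at 127 to 333 CPM against 252 to 528 CPM and at 7.54 to 14.1 CPM against 11.9 to 21.1 CPM, with log2 fold changes of 0.78 ± 0.22 and 0.57 ± 0.19. Aco1, the cytosolic aconitase that binds iron-responsive RNA elements when iron is low, was at 4.40 to 16.4 CPM and 18.4 to 28.0 CPM without overlap, with 0.94 ± 0.24. The lower ones bind iron, haem or haemoglobin in plasma or act in haem breakdown. Among these the transferrin tfa was at 40636 to 59272 CPM and 36326 to 52206 CPM (−0.26 ± 0.12), the haem scavenger hpxa at 4989 to 6669 CPM and 4079.6 to 5806 CPM (−0.33 ± 0.10), and the biliverdin reductase blvrb had −0.34. In the alternatives tfa stayed under 0.05 in 13 of 25, hpxa in 24 of 25 and blvrb in all 25. Tfa and hpxa are also among the hepatocyte markers given above. The erythrocyte markers given above had a median of −0.28, and their part in the iron values was not tested.

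Secreted and inflammatory proteins were mostly near 0. The coagulation and acute phase list had a median of 0.00 over 53 members, and its 5 members under 0.05 (9.43%) were all lower. They included the pentraxins crp3, at 833 to 1172 CPM against 584 to 912 CPM (−0.38 ± 0.12), and crp2 (−0.85). Interferon-stimulated genes were below 0 in 40 of 57 cases with a median of −0.09, and this was −0.01 without control replicate 7. The unfolded protein response list was above 0 in 36 of 49 cases, with a median of 0.12 and 2 members under 0.05 (4.08%, below the 7.43% of all genes). Subunits of the COPI and COPII coats and the translocon had 26 of 40 above 0, a median of 0.07 and 6 at p under 0.05 (15%), all higher. These included sec24d (0.39) and sec24a (0.29), inner coat proteins of the vesicles whose outer coat holds sec31a.

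Several families of translation and RNA processing had medians below 0 from many small values. Cytosolic ribosomal protein genes were below 0 in 81 of 84 cases, with a median of −0.10 and none at an unadjusted p under 0.05 by edgeR. Ribosome biogenesis genes were below 0 in 71 of 89 cases with a median of −0.15, and 7 had p under 0.05 (7.87%, close to the 7.43% of all genes). Among them were polr1d (−0.64), a subunit of RNA polymerases I and III, ddx49 (−0.47) and nhp2 (−0.37). Translation initiation factors had a median of −0.07, and splicing factors had −0.08. The only initiation factor under 0.05 was eif4e2 (1.82%, below the 7.43% of all genes). The medians of these 4 lists kept their sign under every scaling and with any one library left out. Without control replicate 7, however, that of the ribosomal proteins was −0.06 and that of the initiation factors −0.04. Genes of one family share transcription and length, so the number of members on one side is not a number of independent observations. By contrast oxidative phosphorylation subunits had 47 above 0 and 44 below, with a median of 0.00. Aminoacyl-tRNA synthetases, also of translation, had 17 above 0 and 15 below, with a median of 0.01. Mitochondrial ribosomal proteins had a median of −0.03, whose sign changed in 3 of 24 alternatives.

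Long genes were more often higher than short ones. In 5 equal classes of exon length the median log2 fold change was −0.04 in the shortest and 0.02 in the longest, and the share above 0 was 43.1% and 54.6%. The longest class, with exon lengths of at least 4293 bases, held 139 genes higher and 50 lower at p under 0.05, against 64 and 89 in the shortest. Several leading genes are long, such as dync1h1 with 13730 bases and xpo1b with 7153. Within libraries the median deviation of long minus that of short genes was −0.22 on the log2 scale in control replicate 7, −0.08 in control replicate 8 and between −0.02 and 0.08 in the other controls, while all high ARA libraries were at 0.01 to 0.04. Without control replicate 7 the difference between the longest and the shortest class went from 0.0591 to 0.0216. In a fit with an offset for length the 30 leading genes kept their sign and an unadjusted p under 0.05 by edgeR. They were chosen by their small p, and their sizes of 0.42 to 1.68 exceed the difference between length classes. This fit therefore does not measure the part of length in their values, which was not tested further.

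**Figure D4:**
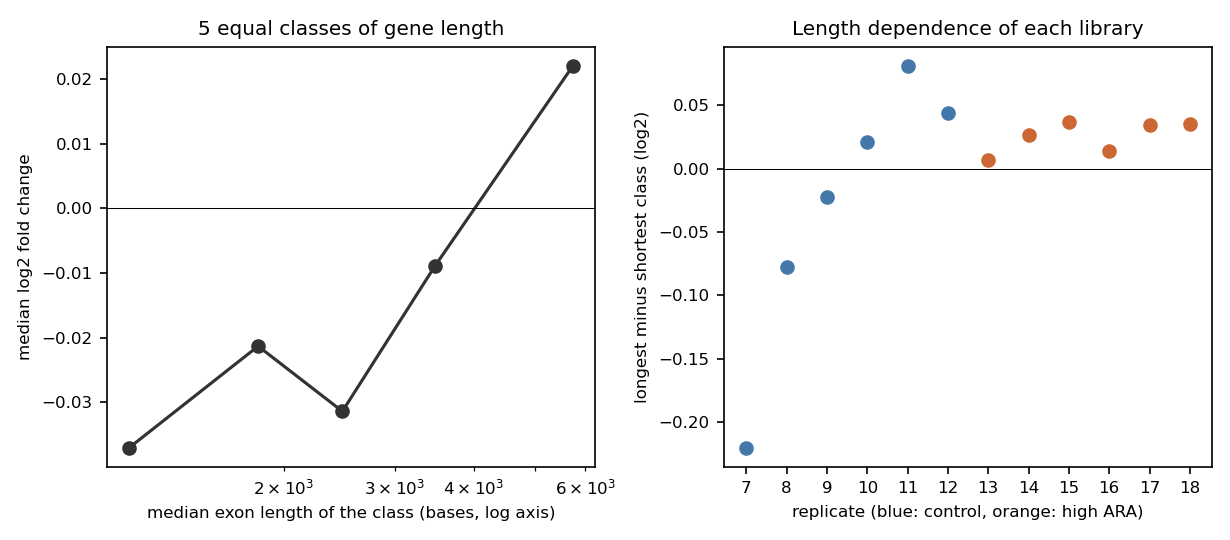
Left, median log2 fold change of high ARA over control (vertical axis) in 5 equal classes of gene length, against the median exon length of the class in bases (log axis). Right, longest minus shortest length class in each library as a log2 deviation from the mean of the 12 libraries, for control (blue) and high ARA (orange). Control replicate 7 lies at −0.22, far below the others.

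The F0 differences were set beside those of the F1 progeny, which had not eaten the high ARA diet. With the same rule of adjusted p under 0.05 in both annotations, 164 of 10786 genes (1.52%) were called in F1. In F0 157 of these were tested, 95 with the same sign, and their median size was 0.19 against 0.93 in F1, where they were chosen. Conversely 26 of the 30 leading F0 genes were tested in F1, 16 had the same sign and 1, taok3a, passed the adjusted threshold there (−1.15). Their median size was 0.68 in F0, where they were chosen, and 0.29 in F1. Of all 849 genes at an unadjusted p under 0.05 by edgeR in F0 and tested in F1, 483 had the same sign. Across the 11513 genes tested in both generations the Pearson correlation of the log2 fold changes was 0.10. The counts of same sign given above were not tested against these values. Among genes with a mean of at least 10 CPM the median size of a log2 fold change was 0.11 in F0 and 0.18 in F1, with a median SE of 0.13 in both. F0 and F1 also differed in age at sampling, which cannot be told apart from generation.

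The difference between the generations was tested by the interaction of diet and generation over all 24 libraries. It passed an adjusted p of 0.05 by edgeR for 13 of 11974 Ensembl genes (0.109%), of which 11 also passed with RefSeq genes and the same sign. For esr1 the log2 fold change was −1.07 in F0 and 1.69 in F1 (interaction −2.76, adjusted p 0.0418 by edgeR), for ddc −0.87 and 0.37 (−1.24, adjusted p 0.0450 by edgeR), and for vldlr, a lipoprotein receptor, 0.52 and −1.73 (2.25, adjusted p 0.0418 by edgeR). The elongase of very long fatty acids elovl4b had 0.29 and −1.79, so that most of its interaction came from F1. The number of such genes depended on single libraries. It was between 2 and 7 when any one of 17 libraries was left out, which were F0 control replicates 9, 10 and 11, F0 high ARA replicates 13, 14, 16, 17 and 18, F1 control replicates 8, 9, 10, 11 and 12, and F1 high ARA replicates 14, 15, 17 and 18. Without any one of the remaining libraries it was at most 15.

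**Figure D5:**
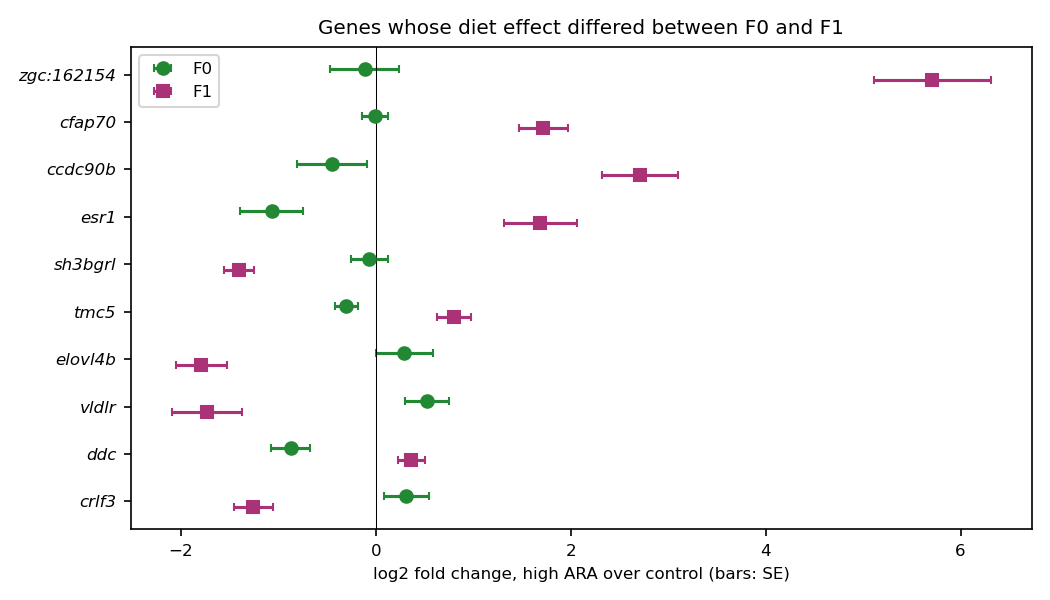
Log2 fold change of high ARA over control (horizontal axis, bars show the SE) in F0 (green circles) and F1 (purple squares) for 10 of the 11 genes whose diet effect differed between the generations at an adjusted p under 0.05 by edgeR. The remaining gene, gpx8, was too low to be tested in F1 alone. The F1 points lie farther from 0 than the F0 points for all but ddc. F0 and F1 lie on opposite sides of 0 for all but sh3bgrl, but no F0 value here passed an adjusted p of 0.05 by edgeR. For zgc:162154, cfap70, sh3bgrl and elovl4b the F0 bar reaches 0, so the side of the F0 value is not resolved. An SE bar that stays clear of 0 does not resolve the side either, as for ccdc90b (−0.45 ± 0.36) and crlf3 (0.31 ± 0.23).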

How the data were processed

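RNA of liver pools was sequenced by the authors, who mapped the reads with HISAT2 to GRCz10. The deposited counts per gene were made with featureCounts 1.5.0-p3, for Ensembl release 85 and for RefSeq genes, without normalization. FastQC 0.11.5 is named in the submitters' processing notes. Per the file headers, reads were counted without strand, and reads at several places or genes were left out, so values of paralogs and of overlapping or antisense genes are uncertain. Each table has 36 count columns, of which 12 were not used here.

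Groups were taken from the labels, with 6 tank pools in each. Counts were fitted in R 4.3.3 with edgeR 4.0.16 (TMM, robust quasi-likelihood F test, Benjamini-Hochberg) on the 12 F0 libraries, for genes whose mean count reached 10, and the interaction on all 24. The study used DESeq2, here version 1.42.0 as an alternative. The SE is the log2 fold change divided by the square root of F. Two-sided exact permutation tests over 924 assignments used log2(CPM + 0.5). They gave 0.00216, the smallest p possible, for 18 of the 30 leading genes and at most 0.0108 for the rest. These genes were chosen on the same contrast and libraries, so these permutation p-values describe them and do not test them. The code was tested on simulated data.

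Ensembl and RefSeq genes were joined by identifier (4656), symbol (12770), older symbol (520) or at least 50% of shared exon bases (5235). The last gave dync1h1, which the Ensembl table lists under a clone name. Of the tested genes 11294 had a tested partner, of which 94.7% had the same sign.

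The gene lists and members were chosen with earlier results of these data known. Named were the 15 higher and 15 lower genes with the smallest Ensembl p, an assigned symbol and a RefSeq p under 0.05 of the same sign, up to 3 members per list by smallest p, ncoa3, bbox1, esr1 and vtg5, 3 interaction genes and defining markers. Others, such as fads2, elovl2, elovl5, tfr2, vldlr and elovl4b, were named after their values were seen. Alternatives were other scaling, other filters, DESeq2, all 24 libraries in one fit, a length offset, acinar or enterocyte scores as covariates, each annotation alone, a replicate block and each library left out. Sequences were not used here.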

Additional observations from a re-analysis of the deposited data

Results flagged for a closer look

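Single libraries stood apart from the other 5 of their group in 18 of 212 groups examined (8.49%). The rule used has a rate of about 1 in 20 only for independent values of a normal distribution. CPM levels need not be normal and the groups examined share libraries, so that rate is not a background for this share. In control, the summed level of islet markers was 508 CPM in replicate 9 against 7.50 to 136 CPM in the others. That of testis markers was 26.7 CPM in replicate 12 against 2.74 to 7.34 CPM. Only 3 of 15 testis markers were tested, and most of the sum in replicate 12 was a single gene, star, given below. Replicate 7 was low for slc22a23 (11.8 CPM) and insra (29.4 CPM), replicate 11 low for tac4 (14.1 CPM) and high for nrip1a (24.9 CPM), replicate 12 high for eif4e2 (10.1 CPM), replicate 8 high for ldhba (118 CPM), and replicate 10 low for gpx8 (1.599 CPM).

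In high ARA, the summed level of macrophage and leukocyte markers was 722 CPM in replicate 16 against 165 to 371 CPM in the others, and hsp70l was also high there, at 10.4 CPM. Replicate 15 was high for pnpla2 (42.2 CPM) and vtg5 (18.7 CPM), replicate 18 high for pnpla7a (6.95 CPM) and esr2a (13.4 CPM), replicate 17 high for dhrs3b (12.6 CPM), replicate 14 high for elovl5 (229.6 CPM) and replicate 13 low for sec24d (36.0 CPM). Of the leading genes this concerns slc22a23, tac4 and eif4e2.

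The diet effect differed between F0 and F1 for 11 genes by the interaction test of edgeR in both annotations. The F0 minus F1 difference of the log2 fold changes was −5.83 for zgc:162154, −3.17 for ccdc90b, −2.76 for esr1, −1.94 for gpx8, −1.73 for cfap70, −1.24 for ddc and −1.11 for tmc5. It was 2.25 for vldlr, 2.07 for elovl4b, 1.56 for crlf3 and 1.33 for sh3bgrl. Adjusted p-values by edgeR were between 0.000995 for zgc:162154 and 0.0475 for gpx8 and crlf3. In F1 control the mean level was 0.033 CPM for zgc:162154 and 0.298 CPM for ccdc90b, so both differences rest on levels near 0. Their log2 fold changes in F0 were −0.11 ± 0.36 and −0.45 ± 0.36 (SE).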

How the results depend on the processing

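No gene was called in both annotations in F0 with edgeR under any scaling, filter, covariate or omission tried, while DESeq2 called 18 genes without and 22 with a normal prior. The cause of this difference between the tools was not tested. With a minimum mean count of 50, which tests fewer genes, the counts at an unadjusted p under 0.05 were 580 (Ensembl) and 581 (RefSeq), the groups did not overlap for 37 genes, and 19 of the 30 leading genes were tested and under 0.05. Without a filter, which tests more genes, the RefSeq count was 1426. Leaving out 1 library gave 743 to 975 Ensembl and 760 to 996 RefSeq genes and a long minus short difference of 0.0216 to 0.0768. It left 33 to 51 of 78 lists with a median above 0 (44 with all). All 30 leading genes kept their sign and an unadjusted p under 0.05 by edgeR. They were chosen on these same libraries, so this is not a test of them. Leaving out the library richest in enterocyte markers from each group, chosen after seeing the data, gave 712 and 744 genes. With an acinar score as covariate 753 Ensembl genes were under 0.05, and with an enterocyte score 1012. Of 89 genes examined singly and at p under 0.05, all kept their sign in the alternatives and 64 stayed under 0.05 in each. These 89 had their small p in the main fit of the same libraries, so this describes them and does not test them. Of the 78 lists, 30 kept the sign of their median. The interaction count of 11 was 94 with DESeq2 and 2 to 15 with 1 library left out. No paired analysis was possible for the F0 comparison because its groups share no replicate number. For the interaction, where F0 and F1 share numbers, a replicate block gave 8 genes. Of the 11, zgc:162154, cfap70, elovl4b and ddc stayed under an adjusted p of 0.05 with it in the Ensembl counts, and the others, at 0.0593 to 0.0889 by edgeR, did not (esr1 0.0721, vldlr 0.0709). Same-numbered libraries correlated at −0.33 to 0.25 in their deviations from the group mean, over 0.1 in 4 of 12 pairs, and 3 F0 libraries correlated best with their own number. The median SE was 0.18 over all genes tested and 0.13 over those with a mean of at least 10 CPM. The part of depth in this was not tested.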

Other observations

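Clock, chromatin, proteasome and transporter genes were not described above. In the circadian list 24 of 39 tested members had a log2 fold change above 0, and the 3 at an unadjusted p under 0.05 by edgeR were all higher (7.69%, near the 7.43% of all genes). These were fbxl3a, which in mammals marks cryptochromes for breakdown (0.84), tefb, an output transcription factor of the clock (0.67), and nfil3-6 (0.50). Chromatin genes were split evenly, with 3 higher and 3 lower of 57 under 0.05 (10.5%). The histone demethylases kdm4aa (0.72, and 0.40 with RefSeq genes) and kdm5c (0.30) were among the higher ones, and ezh2 (−0.58) and suz12a (−0.44), both of the polycomb complex that methylates histones, among the lower ones. Proteasome subunits were above 0 in 38 of 55 cases with a median of 0.04, and psmd1 (0.25), psmd3 (0.23) and psmc2 (0.22) were the 3 under 0.05 (5.45%). Solute carriers, the family with the most tested members here, had 9 of 239 under 0.05 in each direction (7.53% in all, near that of all genes) and a median of 0.01. Among them the monocarboxylate transporter slc16a1b was at 27.7 ± 9.35 CPM in the control and 49.03 ± 15.1 CPM in high ARA (SD, 6 libraries each), with a log2 fold change of 0.82, and the mitochondrial carrier slc25a39 at 39.8 ± 10.4 CPM and 24.5 ± 6.52 CPM, with −0.70. The genes ezh2, suz12a and slc16a1b were named after their values were seen.

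The fitted differences of greatest size belonged to genes of uneven level. For tgm1l2 the log2 fold change was 4.44 ± 1.52 (SE), with 0.337 ± 0.0666 CPM in the control and 7.74 ± 15.4 CPM in high ARA (SD), and for star, a steroid synthesis gene, it was −3.54 ± 1.30, with 4.92 ± 9.99 CPM in the control and 0.371 ± 0.258 CPM in high ARA. One control library held star at 25.3 CPM, against a control median of 0.843 CPM, and this was replicate 12, in which the summed testis markers, of which star is 1 of 3 tested, stood at 26.7 CPM. In each, the SD exceeded the mean in the group with the higher level. The next in size upward, mxf, had 2.85 ± 1.16 with 2.78 ± 5.51 CPM in high ARA.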
